A study of Mus musculus with 8 samples.

Results

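Voltage-gated sodium and calcium channels were examined as a family in spinal cord astrocytes that lack the potassium channel Kir4.1. The family was taken as every gene in the deposited comparison whose symbol begins with Cacna, Cacnb, Cacng or Scn followed by a digit. This gave 43 of 39179 gene identifiers, which carry 40 symbols, 26 for calcium channel subunits and 14 for sodium channel subunits. Cacng6, Cacng7 and Cacng8 each have a second identifier, and those 3 held 0 counts in every library. The libraries came from Aldh1l1-GFP+ cells sorted by flow cytometry from papain-treated spinal cord of mixed Swiss-Webster mice aged 12 to 14 days. The 4 control libraries (S1, S2, S6 and S7) are from cre-negative animals, labelled wild-type. The 4 conditional knockout (cKO) libraries (S3, S4, S5 and S8) are from animals with Kir4.1-floxed/floxed alleles and Aldh1l1-cre, and all 8 carry the GFP reporter. The Aldh1l1 regulatory sequence drives both the cre and the reporter, so the recombined cells and the sorted cells are defined by the same promoter. Values by library are listed in the order just given. Whether a library holds tissue of 1 animal or of several is not given in the sources used here.

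As background, a voltage-gated channel opens when the membrane depolarises and lets sodium or calcium into the cell. Its pore is formed by an alpha subunit (an Nav alpha or a Cav alpha1 protein), and smaller subunits set how many channels reach the membrane and how they open. Nav beta subunits are also cell adhesion molecules of the immunoglobulin type. Cav channels of the Cav1 and Cav2 classes assemble with an intracellular beta and an extracellular alpha2delta subunit. Most of the gamma proteins act as TARPs, which bind AMPA-type glutamate receptors and govern their traffic and gating. Astrocytes do not fire action potentials, but transcripts of these genes have long been found in them. Kir4.1, encoded by Kcnj10, holds the astrocyte membrane at a negative potential.

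The libraries held 13892736 to 25065686 gene reads and 17312 to 20470 detected genes each. Summary lines that name no gene held 56.4% to 61.7% of all counts in the files. Kcnj10, the targeted gene, was at 1820 CPM (read counts scaled by library size) ± 468 (SD, n = 4) in controls while the cKO libraries averaged 34.0 CPM ± 4.64 (SD, n = 4), with no overlap between libraries. Control S1 held 58.1% of the mean of the other 3 controls. All 12 astrocyte markers were detected in every library, and their summed level was 22468 to 39207 CPM in controls and 27490 to 35191 CPM in cKO. Of these, Aqp4 and Aldh1l1 were called, both higher in cKO. Summed markers of other cells were far lower per list. In controls and cKO they spanned 1514 to 3079 and 1016 to 2489 CPM for oligodendrocytes and 687 to 1829 and 754 to 926 CPM for oligodendrocyte precursors (OPC). Neuronal markers spanned 70.8 to 94.8 CPM in controls and 41.0 to 77.2 CPM in cKO. Chat, which marks motor neurons, was detected in 1 library only, at 0.047 CPM.

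Of the 43 identifiers, 38 were detected in at least 1 library and 27 had enough counts to be tested. The 16 not tested were the 3 second identifiers, Scn10a and Scn11a at 0 counts in all libraries, and 11 genes with 3 to 134 counts in total. A total of 0 over all 8 libraries allows a level of up to 0.0197 CPM, a limit that covers counting error only. With the quasi-likelihood test of edgeR and Benjamini-Hochberg adjustment over all 14757 genes tested, 0 members passed an adjusted p of 0.05 as higher in cKO and 0 as lower. Over all genes, 0.203% were called higher and 0.115% lower (0.318% in all). DESeq2 on the same counts called 1 member higher (Cacna1a) and 1 lower, where it called 1.22% of all genes higher and 1.03% lower (2.26% in all). limma-voom called 0 members in either direction, against 0.203% and 0.122% of all genes (0.325% in all). The authors' deposited table gives an adjusted p under 0.05 to 2 of the 21 members for which it has one, Cacna1a among them, where 2.87% of its genes with an adjusted p are past that value.

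At an unadjusted p under 0.05 in the edgeR fit, 6 of the 27 tested members remained, 1 higher (Cacna1a) and 5 lower (Cacna1e, Cacna1h, Cacng7 and Cacng8 among them), or 22.2%, against 9.81% of all genes tested (5.03% higher, 4.77% lower). Libraries of the groups did not overlap in 5 members (18.5%), 3 of them higher (Cacna1a, Cacna2d2 and Cacng5) and 2 lower (Cacna2d3 among them), against 6.34% of all genes tested (3.39% higher, 2.94% lower). Only members with enough counts enter these shares, so they are a description of those 27. The median log2 fold change, cKO over control, was −0.16 over the tested members and −0.017 over all genes, with 12 members above 0 and 15 below.

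**Figure D1:**
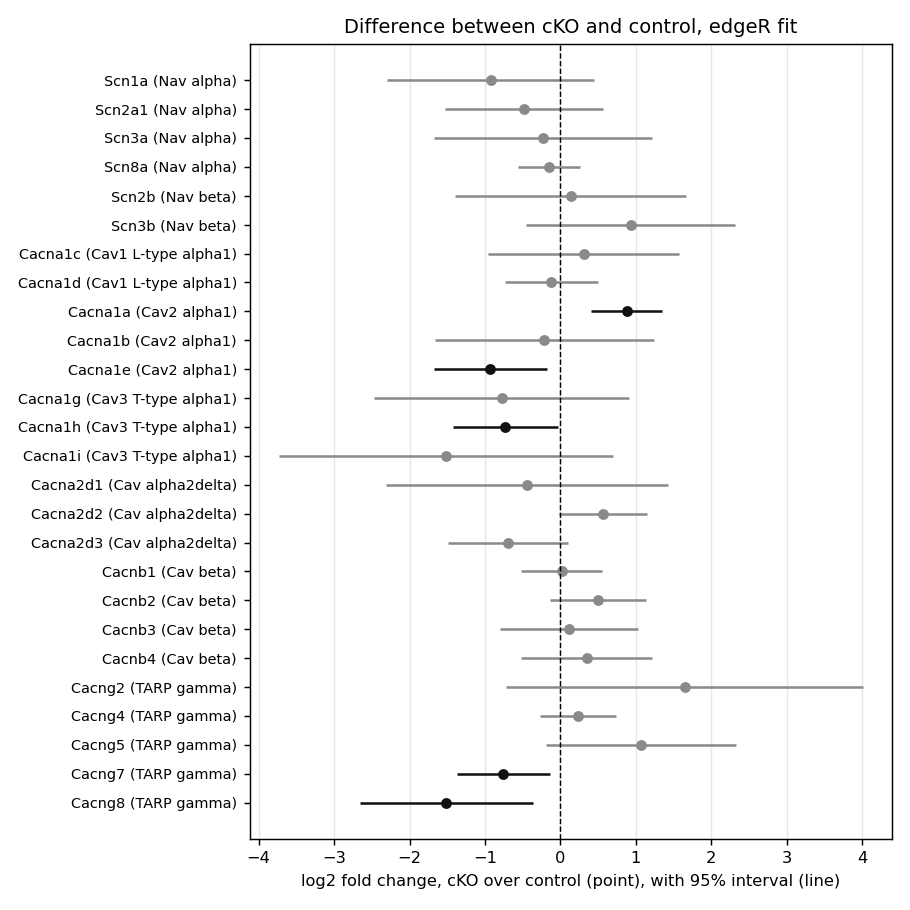
Log2 fold change of cKO over control for 26 tested channel genes (x axis, log2 units), by subunit class (y axis), as a point with its 95% interval from the edgeR fit. The intervals drawn in black leave out 0 and belong to the 5 genes shown with an unadjusted p under 0.05, from Cacng8 at −1.51 to Cacna1a at 0.88.

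The sodium channel pore genes were led by Scn8a, which encodes Nav1.6. Levels between genes are given per length, as the mean of the deposited FPKM columns of a group. Scn8a was at 12.4 FPKM in controls, with columns from 7.73 to 15.6, and made up 66.3% of the summed control FPKM of the Nav alpha genes and Scn7a. By CPM per kilobase of annotated exon it made up 79.2%. Scn2a1 (Scn2a in the annotation used) followed at 3.44 FPKM, Scn1a at 1.78 and Scn3a at 0.739, with control columns that overlap one another. Scn2a1 columns spanned 0.318 to 10.3 FPKM, so the order of these 3 genes is not set apart by their spread.

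By library, Scn8a was at 62.05, 81.5, 102 and 99.8 CPM in the controls and at 69.7, 65.9, 87.2 and 87.5 CPM in cKO. The groups overlapped, and the lowest value was that of a control library. The log2 fold change of Scn8a was −0.16 with a 95% interval from −0.57 to 0.26. On the deposited FPKM values the direction was the opposite, with 14.9 FPKM in cKO. Scn2a1 was at 6.34, 2.91, 9.34 and 12.6 CPM in the controls and at 7.76, 3.08, 4.103 and 7.36 CPM in the cKO libraries, again overlapping. Its log2 fold change was −0.48 (95% interval −1.53 to 0.56), or −0.14 without control S7, and its direction also turned with FPKM values on a log scale. Scn1a and Scn3a had log2 fold changes of −0.92 and −0.24, so all 4 tested Nav alpha genes lay below 0 in the count fit, and 0 of 4 had an unadjusted p under 0.05.

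Scn1a, Scn2a1, Scn3a, Scn7a and Scn9a stand together on chromosome 2, between 65457118 and 66784914 on GRCm38. Their levels were uneven: Scn9a held 15 counts over all 8 libraries, and Scn2a1 held 1039. Scn10a and Scn11a, the channels of pain-sensing neurons, stand on chromosome 9 between 119608456 and 119825456 and held 0 counts. Scn4a, the skeletal muscle channel, held 21 counts, 18 of them in control S7.

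Scn7a encodes Nax, a sodium-sensing relative of the Nav channels. It held 123 counts in control S6 (6.76 CPM), 10 in cKO S3 (0.511 CPM), 1 in control S2 and 0 in the other 5 libraries. Control S6 is also the library with the highest summed level of the 6 fibroblast markers, 584 CPM against 122 to 203 CPM in the other controls and 98.4 to 168 CPM in cKO. Of those 6 markers, Dcn, Col3a1 and Lum were at 0 in at least 1 library. The part of fibroblasts in the Scn7a level was not tested.

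Among the Nav beta genes, which encode the adhesion-type partners of the pore, Scn3b was at 1.204, 2.55, 0.769 and 2.27 CPM in the controls and 2.86, 2.27, 1.65 and 6.16 CPM in cKO, with a log2 fold change of 0.93 (95% interval −0.46 to 2.32) that was 0.41 without cKO S8. The highest library was cKO S8, and the groups overlapped. Scn2b differed by 0.14 on the log2 scale (95% interval −1.39 to 1.66). Scn4b, not tested, held 43 and 16 counts in control S1 and S2, 3 in control S6 and cKO S8, 2 in cKO S4 and 0 elsewhere. Scn3b was at 0.593 FPKM in controls and 1.03 FPKM in cKO, and Scn2b at 0.474 and 0.513 FPKM, with overlapping columns.

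**Figure D2:**
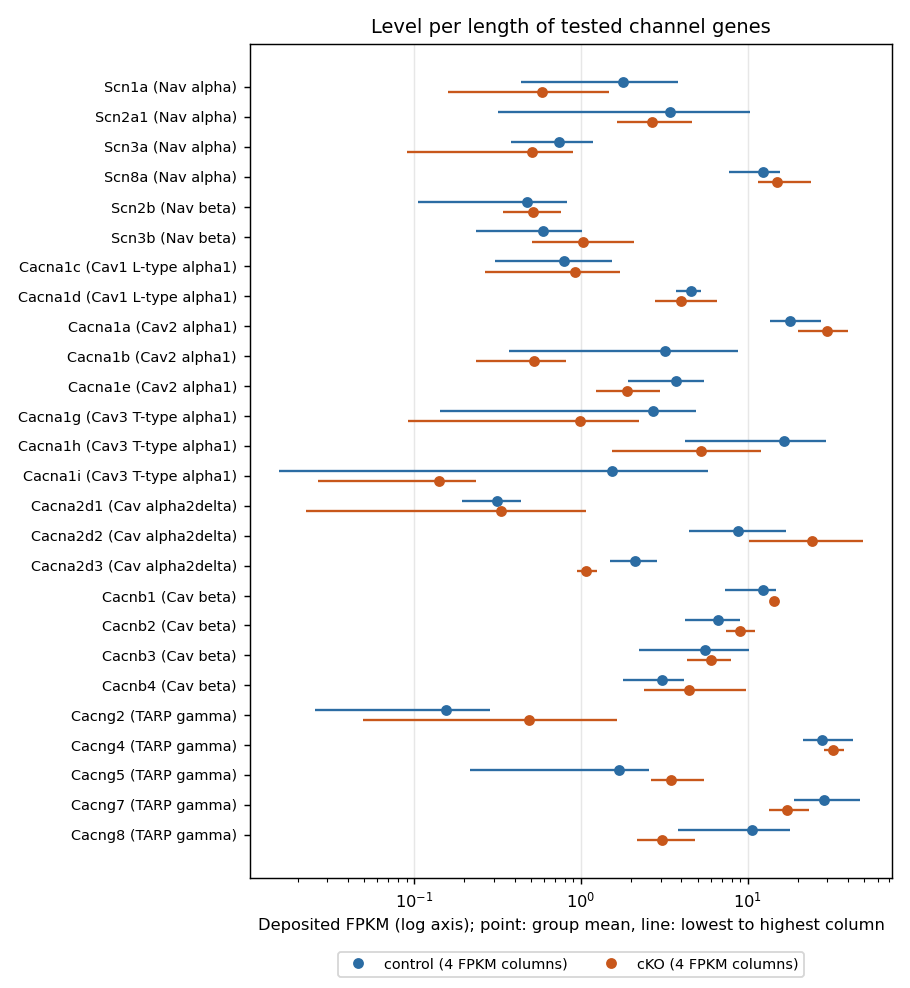
Deposited FPKM (x axis, log scale) of 26 tested channel genes in controls (blue) and cKO (orange), by subunit class (y axis). Points are group means and lines run from the lowest to the highest of the 4 columns of a group. Cacng7, Cacng4, Cacna1a and Cacna1h have the highest control means, from 28.8 down to 16.5 FPKM.

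By deposited FPKM, the calcium channel pore genes were led by Cacna1a and Cacna1h. Cacna1a encodes Cav2.1, the P/Q-type channel best known for triggering transmitter release. It was at 17.9 FPKM in controls (columns 13.6 to 27.4) and made up 35.05% of the summed FPKM of the 10 Cav alpha1 genes, against 68.5% in cKO. By CPM per kilobase of exon these shares were 30.9% and 53.1%. A share also depends on the other genes in the sum. The FPKM means of Cacna1h and Cacna1b were 16.5 and 3.21 in controls and 5.24 and 0.520 in cKO, with columns that overlap between the groups. Cacna1a itself was at 29.7 FPKM in cKO (columns 20.0 to 39.9). Cacna1h, a low-voltage T-type channel, followed at 16.5 FPKM with columns from 4.19 to 29.3, so it did not differ from Cacna1a beyond the spread of its columns. Cacna1d (Cav1.3, L-type) was at 4.57, Cacna1e (Cav2.3, R-type) at 3.70 and Cacna1b (Cav2.2, N-type) at 3.21 FPKM, with overlapping columns. The order after Cacna1a differed by CPM per kilobase of exon. There the control shares were 25.5% for Cacna1d, 17.8% for Cacna1h and 15.8% for Cacna1e.

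Cacna1a held 601, 383, 802 and 690 counts in the controls and 1579, 1062, 1369 and 1293 counts in the cKO libraries. It was at 38.1, 27.9, 44.1 and 32.7 CPM in the controls and at 80.65, 48.2, 78.02 and 55.35 CPM in cKO. All 4 cKO libraries were above all 4 controls, and cKO S4 was nearest to the highest control, S6. The means were 35.7 CPM ± 6.97 (SD, n = 4) and 65.5 CPM ± 16.2 (SD, n = 4), a 1.84-fold ratio. The fitted log2 fold change was 0.88 (standard error 0.22, 95% interval 0.40 to 1.35). In edgeR the adjusted p was 0.152, the lowest of the 27 tested members (unadjusted 0.00155), and DESeq2 gave an adjusted p of 0.0156. In the authors' deposited table Cacna1a has a log2 fold change of 0.80 and an adjusted p of 0.0142. Cacna1a is a plus-strand gene of chromosome 8 (GRCm38, 84388440 to 84640246). Of its 11418 exon bases, 435 are shared with Gm16183 on the opposite strand. Reads there are uncertain because the strand setting is not given in the sources used here. The same limit is not particular to Cacna1a, as 11 members share exon bases with another gene. Among them are Cacnb4 (1433 bases), Cacnb2 (968), Cacna1d (589) and Cacng8 (91, on the same strand).

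Its relatives in the Cav2 class lay on the other side of 0. Cacna1e was at 21.3, 29.0, 60.04 and 50.7 CPM in the controls and at 19.1, 19.1, 13.4 and 32.8 CPM in cKO. Control S1 and S2 lay within the cKO range, so the groups overlapped. Its log2 fold change was −0.93 (standard error 0.35, 95% interval −1.68 to −0.18), and edgeR gave an adjusted p of 0.382. Cacna1b differed by −0.21 on the log2 scale, with an interval from −1.66 to 1.23. Summed neuronal markers were lower in 3 of the 4 cKO libraries than in any control. The exception was cKO S5 at 77.2 CPM, where Cacna1e was lowest. Among the controls, these sums were higher in S6 and S7 (82.7 and 94.8 CPM) than in S1 and S2 (72.5 and 70.8 CPM). Cacna1e was likewise higher in control S6 and S7 than in S1 and S2. Of the 13 neuronal markers 11 were tested, 8 with an estimate below 0 and 3 above (Nefm at 0.38, Syt1 at 0.42 and Gad1 at 0.37 on the log2 scale), and 0 were called by edgeR. In 3 of the 13 (Elavl4, Snap25 and Gad2) every cKO library was below every control, and in 0 every cKO library was above. In RNA from sorted bulk cells, fewer cells of a type and less RNA per cell cannot be told apart. The part of neurons in the Cacna1e values was not tested.

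The T-type genes all lay below 0 on the log2 scale, and 0 of 3 passed the adjusted threshold. Cacna1h was at 11.4, 21.5, 20.7 and 16.5 CPM in the controls and at 13.0, 7.35, 7.47 and 14.4 CPM in cKO. Only control S1 lay within the cKO range. Its log2 fold change was −0.73 (95% interval −1.43 to −0.033), with an edgeR adjusted p of 0.483. Cacna1g held 6 to 111 counts per library and differed by −0.78 (95% interval −2.47 to 0.91), but by −0.040 without control S6, which held 111 of its 335 counts, and by −0.44 without cKO S5. Cacna1i, at 0.110 to 4.17 CPM in controls and 0.136 to 1.199 CPM in cKO, differed by −1.52 with an interval from −3.73 to 0.70, and by −0.55 without control S7.

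Of the L-type genes, Cacna1d and Cacna1c were tested. Cacna1d was at 25.7, 33.0, 35.9 and 35.3 CPM in the controls and at 20.9, 21.0, 50.95 and 26.8 CPM in cKO. The highest and the lowest library were both cKO, S5 and S3. Its log2 difference was −0.12 (95% interval −0.74 to 0.50). Cacna1c, Cav1.2, was at 1.77, 4.00, 4.56 and 9.33 CPM in the controls and at 3.88, 8.03, 10.49 and 2.05 CPM in cKO, and differed by 0.31 (95% interval −0.96 to 1.58). Both directions turned when 1 cKO library was left out. The muscle channel Cacna1s and the retinal channel Cacna1f held 4 and 3 counts in all, each from 1 library.

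**Figure D3:**
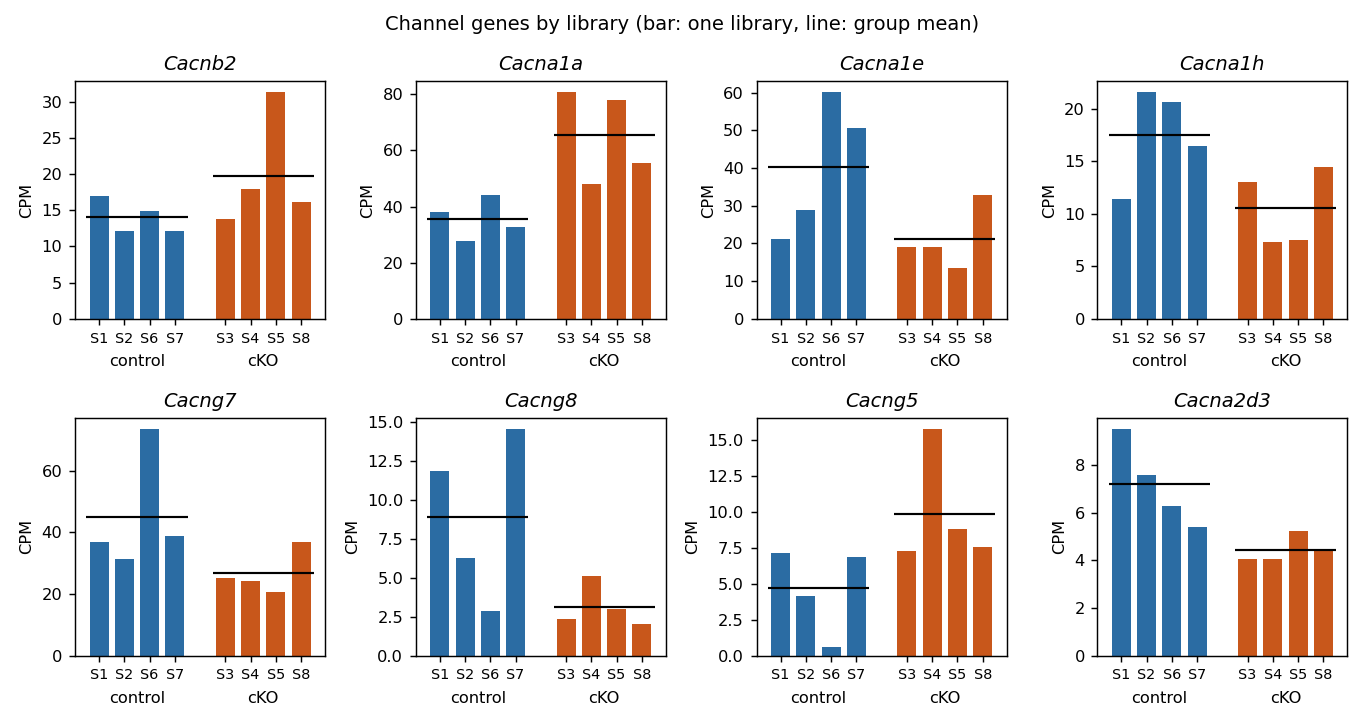
CPM (y axis, from 0) of 8 channel genes in each library (x axis), with controls in blue and cKO in orange. A bar is 1 library and the black line is the group mean. Cacna2d3 lies below all controls and Cacna1a and Cacng5 above all controls in every cKO library, while the groups overlap for Cacnb2, Cacna1e, Cacna1h, Cacng7 and Cacng8.

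The alpha2delta subunits, extracellular proteins that carry Cav channels to the membrane and that bind gabapentin in the case of Cacna2d1 and Cacna2d2, were led by Cacna2d2. It made up 77.7% of the summed control FPKM of the 4 genes and 94.4% in cKO. Its shares by CPM per kilobase of exon were lower, at 64.2% and 81.3%. Cacna2d2 was at 15.7, 15.3, 13.1 and 14.1 CPM in the controls and at 16.8, 18.9, 17.3 and 33.0 CPM in cKO. Every cKO library was above every control, and cKO S8 stood well above the other 3. It differed by 0.56 on the log2 scale (95% interval −0.018 to 1.15), with an edgeR adjusted p of 0.523, and it was 0.28 without cKO S8. Cacna2d3 was at 9.51, 7.57, 6.26 and 5.40 CPM in the controls and at 4.03, 4.04, 5.24 and 4.41 CPM in cKO. Here every cKO library was below every control, by a margin of 5.24 against 5.40 CPM at the nearest. Its log2 fold change was −0.70 (95% interval −1.50 to 0.10), with an edgeR adjusted p of 0.569. Cacna2d1 held 3 to 79 counts per library, and Cacna2d4, not tested, held 53 counts in all.

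Transcript start regions of Cacna2d2 and Cacna2d3 are shown because these related genes had libraries apart in opposite directions. The sequences are from RefSeq on GRCm38.p6, 250 bases before to 50 after a transcript start, 5′ to 3′ on the gene's strand, with GGGCGG (the GC box) or its reverse complement in capitals. Cacna2d2 is read from chr9:107399630-107399929 on the plus strand and Cacna2d3 from chr14:29721815-29722114 on the minus strand. The Cacna2d2 window belongs to an annotated transcript start inside the gene, whose first base is at 107399612, while that of Cacna2d3 is placed on the outermost start of its gene.
Cacna2d2: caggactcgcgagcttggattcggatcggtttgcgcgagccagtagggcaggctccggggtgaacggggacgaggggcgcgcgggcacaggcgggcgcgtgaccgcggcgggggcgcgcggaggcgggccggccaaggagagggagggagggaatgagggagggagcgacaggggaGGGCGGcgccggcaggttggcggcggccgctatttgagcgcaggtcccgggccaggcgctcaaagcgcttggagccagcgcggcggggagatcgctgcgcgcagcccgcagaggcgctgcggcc
Cacna2d3: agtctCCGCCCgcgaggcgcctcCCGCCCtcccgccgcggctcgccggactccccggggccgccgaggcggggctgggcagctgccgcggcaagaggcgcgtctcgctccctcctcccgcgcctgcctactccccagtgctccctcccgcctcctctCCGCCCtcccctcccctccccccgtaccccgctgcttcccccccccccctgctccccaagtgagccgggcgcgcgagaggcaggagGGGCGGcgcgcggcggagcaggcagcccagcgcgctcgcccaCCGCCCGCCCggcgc
Both windows are rich in CpG, with 43 and 41 CpG pairs against a median of 7 over 32851 windows of 300 bases. Cacna2d2 holds 1 match to GGGCGG and Cacna2d3 holds 6, counted on both strands with overlaps, and neither holds TATAAA or CACGTG. On either strand GGGCGG was found in 35.7% of all windows, TATAAA in 13.6% and CACGTG in 7.15%. Of the 40 symbols, 30 matched the table, with 41 windows, of which 16 (39.02%) hold GGGCGG, 2 hold TATAAA and 0 hold CACGTG. Those with no entry include Cacna1a, Cacna1g, Cacna1h, Cacna2d4, Cacng1, Cacng4, Scn3a and Scn3b.

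The 4 intracellular Cav beta genes were all expressed, and all were tested. Their control FPKM means were 12.4 for Cacnb1, 6.59 for Cacnb2, 5.50 for Cacnb3 and 3.04 for Cacnb4. The FPKM columns of Cacnb1 (7.35 to 14.8) and Cacnb2 (4.23 to 9.04) lay above all columns of Cacnb4 (1.79 to 4.16). By CPM per kilobase of exon the control shares were 44.6% for Cacnb1, 31.4% for Cacnb3, 12.1% for Cacnb4 and 11.95% for Cacnb2. Cacnb1 thus led by both measures, while the place of Cacnb2 above Cacnb3 and Cacnb4 held for FPKM only. Cacnb1 was at 19.2, 21.5, 12.03 and 19.0 CPM in the controls and at 21.0, 17.4, 16.8 and 17.3 CPM in cKO. The groups overlapped throughout, and the log2 fold change was 0.016 (95% interval −0.52 to 0.55). Cacnb2 was at 16.9, 12.2, 14.9 and 12.2 CPM in the controls and at 13.8, 18.0, 31.3 and 16.1 CPM in cKO, where S5 was the highest. It differed by 0.49 (95% interval −0.14 to 1.13), and by 0.19 without cKO S5. Cacnb3 and Cacnb4 differed by 0.11 and 0.35. All 4 estimates were above 0, also with library totals and with RLE size factors, and 0 of 4 had an unadjusted p under 0.05.

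The gamma family held the most abundant members of all. Cacng7 was at 28.8 FPKM in controls (columns 18.9 to 47.4) and Cacng4 at 27.8 (columns 21.5 to 42.6), a difference well within the spread of the columns. Together with Cacng8 at 10.6 FPKM they made up nearly all of the summed control FPKM of the TARP genes, with shares of 41.6% for Cacng7, 40.2% for Cacng4 and 15.4% for Cacng8. Cacng4 encodes TARP gamma-4, Cacng7 gamma-7, Cacng5 gamma-5 and Cacng8 gamma-8.

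Cacng4 was at 56.6, 62.3, 57.5 and 115 CPM in the controls and at 84.2, 77.7, 103 and 77.8 CPM in cKO. All cKO libraries were above control S1, S2 and S6, and control S7 was above all cKO libraries. Cacng4 differed by 0.23 on the log2 scale (95% interval −0.27 to 0.74), and it was 0.55 without control S7. Control S7 was also the library with the highest summed OPC markers, 1829 CPM against 687 to 1188 CPM in the other controls, and all 9 OPC markers were detected in every library. It also had the highest summed markers of oligodendrocytes (3079 CPM), neurons (94.8 CPM) and mural cells (120 CPM). The next highest control was at 2479, 82.7 and 110 CPM in the same order. The part of any of these cells in the Cacng4 level was not tested.

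Cacng7 was at 36.95, 31.15, 73.4 and 38.75 CPM in the controls and at 25.3, 24.2, 20.6 and 36.7 CPM in cKO. Control S6 was the highest, and only cKO S8 reached into the control range. Its log2 fold change was −0.76 (standard error 0.28, 95% interval −1.37 to −0.14), and edgeR gave an adjusted p of 0.393. Without control S6 it was −0.42. Cacng8 held 187, 86, 52 and 307 counts in the controls and 46, 112, 52 and 48 counts in cKO. It was at 11.9, 6.26, 2.86 and 14.5 CPM in the controls and at 2.35, 5.08, 2.96 and 2.05 CPM in cKO, so that control S6 lay among the cKO values. The log2 fold change was −1.51 (standard error 0.53, 95% interval −2.65 to −0.37), with an edgeR adjusted p of 0.348. Cacng7, Cacng8 and Cacng6 are plus-strand neighbours on chromosome 7 (GRCm38, 3332955 to 3435667). The order of the control libraries differed between the first pair, with S6 highest for Cacng7 and lowest for Cacng8. Cacng6, a gamma subunit that is not a TARP, held 26 counts in all.

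Cacng4, Cacng5 and Cacng1 form another run, on the minus strand of chromosome 11 from 107703218 to 107915055. Cacng5 was at 7.16, 4.15, 0.604 and 6.87 CPM in the controls and at 7.25, 15.7, 8.78 and 7.53 CPM in cKO. Every cKO library was above every control, cKO S3 by 7.25 against 7.16 CPM. Cacng5 differed by 1.06 on the log2 scale (95% interval −0.20 to 2.32), and edgeR gave an adjusted p of 0.587. Control S6 was the lowest library, and without it the log2 fold change was 0.70. Cacng2 (stargazin, the TARP first described) was at 0.165 to 1.204 CPM in controls and at 0.562, 0.454, 7.24 and 0.214 CPM in cKO. cKO S5 held 127 of its 197 counts, and without cKO S5 its log2 fold change of 1.65 turned to −0.70. Cacng3 held 16 counts and Cacng1, the muscle gamma subunit, held 4.

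**Figure D4:**
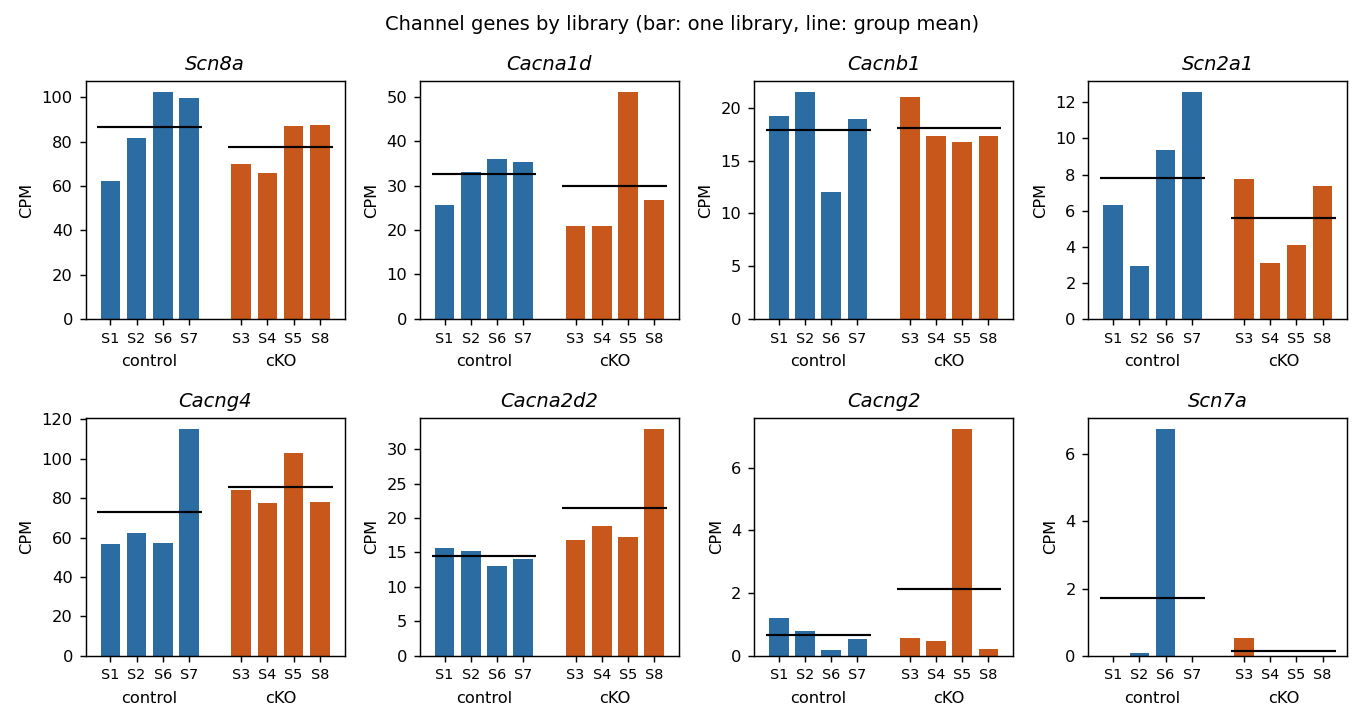
CPM (y axis, from 0) of 8 further channel genes in each library (x axis), with controls in blue and cKO in orange. A bar is 1 library and the black line is the group mean. Cacng4 in control S7 (115 CPM), Cacna2d2 in cKO S8 (33.0 CPM), Cacng2 in cKO S5 (7.24 CPM) and Scn7a in control S6 (6.76 CPM) stand above the rest of their groups.

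The authors' deposited table gives a fold change but no p for 5 members, Cacna2d2, Cacng2, Cacng4, Scn4a and Scn7a. In each of these a library stood above the other 3 of its group, which were cKO S8, cKO S5, control S7, control S7 and control S6 in the same order.

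Genes known to act with these channels were then examined, 33 in all, of which 26 were tested. In the edgeR fit 0 were called in either direction, against 0.318% of all genes, and 4 had an unadjusted p under 0.05, all lower, or 15.4% against 9.81%. Of these, 3 belong to the AMPA receptors that TARPs serve. Gria2, the subunit that makes the receptor impermeable to calcium, was at 225, 214, 231 and 195 CPM in the controls and at 167, 92.2, 124 and 108 CPM in cKO. Every cKO library was below every control. Its log2 fold change was −0.82 (standard error 0.18), and edgeR gave an adjusted p of 0.101. Gria1 was at 52.5, 74.97, 53.9 and 57.8 CPM in the controls and 36.8, 24.4, 14.9 and 41.7 CPM in cKO, a log2 fold change of −1.02 with an edgeR adjusted p of 0.205. Shisa9, another auxiliary protein of the receptor, differed by −0.37 with an edgeR adjusted p of 0.449, again with no overlap of the groups. Gria4, the subunit with the next highest count level after Gria2, differed by 0.021 and Gria3 by 0.24. Beside these values, the summed neuronal markers were lower in 3 of 4 cKO libraries than in any control. Summed mural cell markers were at 98.4 to 120 CPM in controls and 57.7 to 96.1 CPM in cKO, with no overlap. Most of that sum was Notch3 (means 65.9 CPM in controls and 39.4 in cKO) and Pdgfrb (36.6 and 31.0 CPM). In 0 of the 8 mural markers was every cKO library below every control. Of the 5 tested, 3 had estimates below 0 and 2 above (Tagln at 0.49 and Acta2 at 0.23), with 0 called by edgeR. The OPC sums overlapped, while 7 of the 9 OPC markers, Gpr17 (−1.19), Neu4 (−1.27) and Sox10 (−0.96) among them, had log2 fold changes below 0. The other 2, Olig1 (0.33) and Olig2 (0.030), lay above 0, and 0 of the 9 were called by edgeR. All 11 oligodendrocyte markers and 8 of 9 endothelial markers also lay below 0, with overlapping sums and 0 called. The part of these cells in the values of the receptor genes was not tested.

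The sodium leak channel Nalcn was at 1.27, 1.53, 10.8 and 9.24 CPM in the controls and 3.01, 0.998, 0.228 and 1.41 CPM in cKO, with a log2 fold change of −2.01 and an edgeR adjusted p of 0.448. Control S6 and S7 were high, and the other controls overlapped with cKO. Of the Nav partners, such as the ankyrins Ank2 and Ank3, the intracellular fibroblast growth factor homologues and calmodulin, 0 of 11 tested had an unadjusted p under 0.05. Ank2 had libraries apart, at 1436, 1749, 1700 and 1298 CPM in the controls and 1847, 1808, 1923 and 1956 CPM in cKO, with a log2 fold change of 0.29 and an edgeR adjusted p of 0.558. Of the Cav partners, 0 of 4 tested had an unadjusted p under 0.05, and Rem1 and Stac were at 0 in every library.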

How the data were processed

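RNA of sorted spinal cord astrocytes was sequenced in 8 libraries, 4 control and 4 cKO, grouped by their titles. The authors deposited raw counts per gene, and HTSeq 0.6.1p1, TopHat2 2.0.11, Bowtie2 2.2.3 and build GRCm38 are named in the submitters' processing notes, while annotation and strand setting are not given in the sources used here. The 5 summary lines per file were left out. The authors also deposited FPKM (Cufflinks 2.2.1 in the submitters' processing notes). Only 3 of 8 FPKM columns tracked the like-named count file, over 10763 genes, but all 8 followed a library of their own group, so they were used by group only. The authors' deposited DESeq2 comparison (1.14.1) holds group means of scaled counts, a signal per gene, with log2 fold changes, their errors and Wald statistics (scores), p-values and adjusted p-values, per the file headers.

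Counts were fitted with edgeR 4.0.16 (quasi-likelihood, TMM, filterByExpr, no covariate) in R 4.3.3 over 14757 genes, with Benjamini-Hochberg adjustment and a threshold of 0.05. CPM use TMM-adjusted library sizes. The fit was tested on simulated data. Alternatives were RLE size factors, library totals, filters of at least 1 count in any or 10 counts in every library, DESeq2 1.42.0, limma-voom 3.58.1, limma on log2(FPKM + 0.1) and log2(FPKM + 1) for genes with a mean of at least 0.1 FPKM, and leaving out each library. Members, marker lists, partner lists and tests were chosen with earlier results of these data known. Values by library are given for members past the threshold, members of at least 1 CPM whose groups do not overlap, the 2 highest by control FPKM in each class, the 5 largest changes, and partners with an unadjusted p under 0.05. Other genes with such values were chosen after their values were seen. Nothing in the labels says whether libraries come from separate animals beyond the word biological, and p-values measure the spread between these libraries. Coordinates and exon lengths are from GENCODE M21 on GRCm38. Python 3.11.15 and matplotlib 3.10.9 were used. Values of some members are not reported here, though they enter the fit and the counts of members.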

Additional observations from a re-analysis of the deposited data

Results flagged for a closer look

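In 48 groups of 4 libraries, 7 held a library far from the remaining 3. The rule flags about 1 in 20 groups of normally distributed values, or 2.4 of 48, but CPM need not be normally distributed. For Scn4a in controls and Scn7a in cKO the remaining 3 values were 0, so any count would have been flagged. The 7 can therefore not be read as an excess over 2.4. Genes share libraries, so these groups are not independent, and Scn4a, Scn4b and Scn7a were added after their values were seen. Cacna2d2 was at 33.0 CPM in cKO S8, against 16.8 to 18.9 CPM in the other cKO libraries. Cacnb1 was at 21.0 CPM in cKO S3, against 16.8 to 17.4 CPM. Cacng2 was at 7.24 CPM in cKO S5, against 0.214 to 0.562 CPM. Cacng4 was at 115 CPM in control S7, against 56.6 to 62.3 CPM in the other controls. Scn4a was at 0.853 CPM in control S7 and at 0 in the other controls. Scn7a was at 6.76 CPM in control S6, against 0.0728 CPM or less in the other controls, and at 0.511 CPM in cKO S3, against 0 in the other cKO libraries.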

How the results depend on the processing

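No paired analysis was possible because the groups share no replicate number. The counts of members called higher and lower were 0 and 0 in 15 of 16 alternatives, leaving out each library included (0 to 0), and 1 and 1 with DESeq2. Kcnj10 kept its direction and its call in all 16, with log2 fold changes from −6.12 to −5.61. Of 316 values of the 20 named members under an alternative, 304 kept direction and side of the threshold, 2 passed it (with DESeq2, Cacna1a among them) and 10 turned their direction. Without cKO S5 Cacna1c was at −0.080 and Cacng2 at −0.70. Cacna1d was at 0.027 and 0.017 without cKO S3 and S4 (range over left-out libraries −0.50 to 0.027), and Cacnb1 at −0.056 without cKO S3 and −0.13 without control S6. Ranges over left-out libraries were −0.08 to 0.83 for Cacna1c, −0.13 to 0.11 for Cacnb1 and −0.70 to 2.08 for Cacng2. With FPKM, Scn2a1 was at 0.45 and 0.15 and Scn8a at 0.23 and 0.22 (pseudocounts 0.1 and 1). The cause was not tested. Over left-out libraries Cacna1a ranged from 0.77 to 0.9985 (adjusted p from edgeR 0.196 to 0.347). Library totals moved the median of all genes by 0.11 and left 12 members above and 15 below 0. Genes with few counts, such as Cacng2 and Cacna1i, have intervals that span more than 4 log2 units.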

Other observations

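The count ratio of Cacna1a to Cacna1e, genes of the same Cav2 class, was computed per library after both were seen to lie on opposite sides of 0. It was 1.79, 0.962, 0.734 and 0.645 in the controls and 4.22, 2.52, 5.83 and 1.69 in the cKO libraries, in the order used above. Cacna1a thus had fewer reads than Cacna1e in 3 of 4 controls and more in all cKO libraries, with control S1 above cKO S8. The ratio of Cacng7 to Cacng4, the most abundant TARP genes, was 0.653, 0.500, 1.28 and 0.337 in the controls and 0.300, 0.311, 0.200 and 0.471 in cKO. Cacng7 exceeded Cacng4 in counts in control S6 only, and cKO S8 lay within the control range. Ratios of counts between genes also depend on their lengths, which are the same in every library.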
